A study of Mus musculus with 12 samples.

Results

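The genes described here are 8 p53-linked genes of nutrient sensing, sugar and glutamine use and antioxidant defence: Sesn1, Sesn2, Sesn3, Tigar, Gls2, Sco2, Prkab1 and Gpx1. They were taken by name and not by a cut on their measured values, with earlier results of these data known. All 8 were found among the 54735 gene symbols quantified in every library. RNA was measured in the dorsal telencephalon (pallium, the rudiment of the neocortex and hippocampus) of C57/Bl6 mouse embryos at E13.5 (mid-neurogenesis), in 3 genotypes with 4 embryos each. Controls carried 1 wild-type and 1 floxed Rnu11 allele with both Trp53 alleles wild type (Rnu11wt/flx::Trp53wt/wt::Emx1-Cre+). The conditional knockout, called cKO here, had both Rnu11 alleles floxed and Trp53 wild type (Rnu11flx/flx::Trp53wt/wt::Emx1-Cre+), and the double knockout, called dKO, had both genes floxed on both alleles (Rnu11flx/flx::Trp53flx/flx::Emx1-Cre+). Rnu11 is the gene for the U11 snRNA, which recognises the 5′ splice sites of minor introns, and Trp53 encodes p53. All 12 embryos, controls included, carried Emx1-Cre, which recombines in pallial progenitors and their progeny and leaves microglia, vessels and other cells of the tissue with intact alleles. The comparisons ask what loss of U11 does in this tissue and which of those differences are present when p53 is lost too.

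The transcription factor p53 is best known for stopping the cell cycle and inducing apoptosis after damage, and it also acts on genes that adjust metabolism and limit oxidative damage. Sestrins (Sesn1, Sesn2, Sesn3) restrain the growth kinase mTORC1 when amino acids are scarce or cells are stressed, and Sesn2 is known as a leucine sensor that binds the GATOR2 complex. Among the other genes, Tigar encodes a fructose bisphosphatase that lowers glycolytic flux, Gls2 a mitochondrial glutaminase, Sco2 a copper chaperone for the assembly of cytochrome c oxidase, Prkab1 a scaffold subunit of the AMP-activated kinase, and Gpx1 a selenium-containing peroxidase that removes hydrogen peroxide.

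The upstream sequences of the 3 sestrin genes are shown because these paralogs differed most in their response. Windows around RefSeq start sites (GRCm38.p6, the assembly of the mm10 build) were found for 7 of the 8 genes, with 2 for Sesn1, which has alternative starts. Gls2 had no window in this table. Each line gives the 250 bases before a start site, 5′ to 3′ on the strand of the gene. Sesn2 lies on the minus strand and its bases are chr4:132510457-132510706. Sesn1 lies on the plus strand and the bases before its internal start are chr10:41887189-41887438. Sesn3 lies on the plus strand and its bases are chr9:14276051-14276300. Capitals mark matches to the motifs named next.
Sesn2: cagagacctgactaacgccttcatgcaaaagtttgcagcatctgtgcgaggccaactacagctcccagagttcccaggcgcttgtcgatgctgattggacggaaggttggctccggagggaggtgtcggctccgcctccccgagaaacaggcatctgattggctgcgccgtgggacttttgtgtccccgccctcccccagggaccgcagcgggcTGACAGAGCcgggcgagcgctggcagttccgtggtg
Sesn1: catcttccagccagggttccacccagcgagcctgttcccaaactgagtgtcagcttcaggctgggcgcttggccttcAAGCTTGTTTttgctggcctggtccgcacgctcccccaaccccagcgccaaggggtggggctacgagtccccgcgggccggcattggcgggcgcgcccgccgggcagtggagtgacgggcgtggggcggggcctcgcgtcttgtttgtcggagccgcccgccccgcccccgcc
Sesn3: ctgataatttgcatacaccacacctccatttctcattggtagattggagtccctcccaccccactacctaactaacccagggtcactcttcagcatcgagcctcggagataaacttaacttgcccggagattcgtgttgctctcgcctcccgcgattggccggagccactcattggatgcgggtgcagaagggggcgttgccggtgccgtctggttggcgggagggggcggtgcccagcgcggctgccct
A p53 half-site was searched on both strands, together with TGATGNAA (the element bound by ATF4 with a C/EBP partner), TGACNNNGC (the core of the antioxidant response element bound by NRF2) and GTAAACA (a forkhead site for FOXO factors). No match of one pattern overlapped a match of another in the windows of these genes. The Sesn1 internal window held a p53 half-site, AAGCTTGTTT, beginning 173 bases before the start, position -173. Of 32851 RefSeq windows of 300 bases, 8.36% held at least 1 such half-site. The Sesn2 window held TGACAGAGC, a TGACNNNGC match, at position -36, and 12.4% of all windows held that pattern. A GTAAACA match lay on the minus strand at position 22 after the upstream Sesn1 start, outside the bases shown, against 3.65% of all windows. TGATGNAA, found in 3.97% of all windows, had no match in the 8 windows. The windows cover only 250 bases before to 50 bases after a start, and sites within introns were not examined.

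Values are TPM, a transcript abundance scaled for transcript length and library total, so that levels of different genes can be set side by side. Each library sums to 1000000 TPM, and the read depth behind the values is unknown. Rnu11 was at 521 to 724 TPM in controls, 115 to 159 in cKO and 142 to 199 in dKO. Trp53 was at 2.63 to 6.37 TPM in controls, 3.92 to 4.83 in cKO and 0.920 to 1.49 in dKO. Both knockout groups were separate from controls for Rnu11, and dKO was separate from both other groups for Trp53 (exact permutation p = 0.0286 each, two-sided, the smallest that 4 against 4 allows). The floxed exons are not given in the labels, so the Trp53 values may include transcript from outside the deleted part. Nuclear protein-coding genes took 14.6 to 16.3% of TPM in controls, 16.1 to 19.99% in cKO and 14.4 to 15.5% in dKO. The median log2 difference over the 11764 genes tested was 0.25 between cKO and control and -0.26 between dKO and cKO as deposited, and 0.12 and -0.08 after rescaling every library to the same protein-coding total. Calls among the members tested are given as deposited, after that rescaling, and after centring, which subtracts each library's median shift. Most other genes and lists are given only as deposited and after centring. There, the lack of a rescaled value does not mean the lack of a call. Rescaling acts on TPM, whereas centring takes the same log2 amount from a gene at any level. In bulk tissue, a change in the number of cells of a type and a change in RNA per cell cannot be told apart. The labels name embryos but not litters.

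In controls, Gpx1 was the most abundant of the 8 genes at 24.9 ± 3.35 TPM (mean ± SD, n = 4), followed by Prkab1 at 6.68 ± 0.892. Sesn1 (3.15 ± 0.255), Sesn3 (2.51 ± 0.574) and Tigar (2.40 ± 0.286) formed a middle tier in which neighbouring ranges overlapped. Sco2 (1.08 ± 0.180) and Sesn2 (0.505 ± 0.220) were lower, and Gls2 was the lowest at 0.210 ± 0.0350 TPM. The dKO order was the same, with the same 2 overlaps between neighbours. In cKO, Sesn2 moved from the seventh to the fourth place, between Sesn1 and Tigar, and its range overlapped those of both. The plot of TPM by embryo shows this as an isolated step in the Sesn2 panel.

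**Figure D1:**
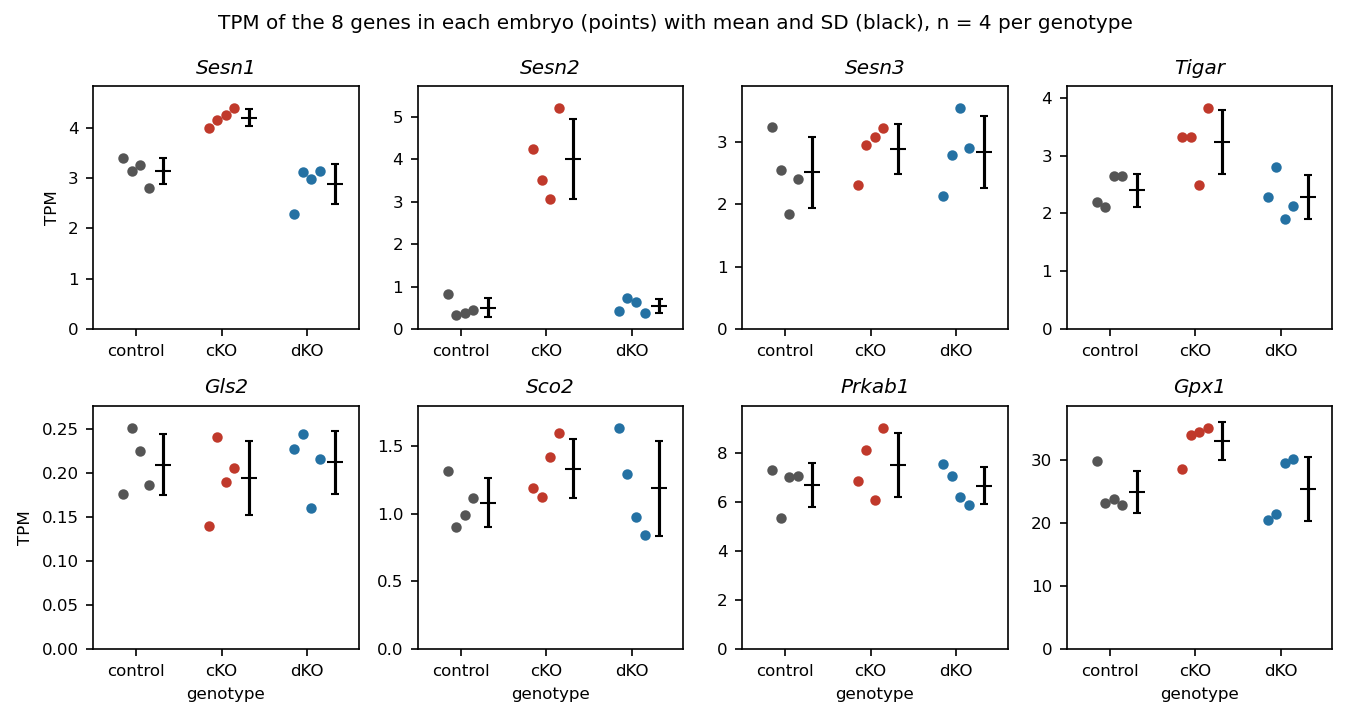
TPM (y axis, linear, from 0) of each of the 8 genes in the 4 control, 4 cKO and 4 dKO embryos (x axis); points are embryos in the order of their labels, and the black mark and bar are the mean and SD. Sesn2 is at 3.06 to 5.21 TPM in cKO and under 1 TPM in every control and dKO embryo, while Sesn1 shows a smaller separation and the other 6 genes overlap between groups.

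Sesn2 was the member that responded most to loss of U11. It was at 0.828, 0.344, 0.392 and 0.454 TPM in control embryos 1 to 4, at 4.24, 3.51, 3.06 and 5.21 in cKO embryos 1 to 4, and at 0.426, 0.738, 0.653 and 0.374 in dKO embryos 1 to 4. Every cKO embryo lay above every control and dKO embryo, and the control and dKO ranges overlapped almost entirely. The cKO mean was 7.94 times the control mean, and the dKO mean was 1.09 times the control mean. On the log2(TPM + 1) scale, which understates changes of low genes, Sesn2 rose by 1.73 in cKO (SE 0.146, 95% interval 1.41 to 2.04, limma adjusted p = 1.58e-05). From cKO to dKO it fell, with a log2 change of -1.68 (interval -2.0 to -1.36, limma adjusted p = 2.28e-05). For dKO against control the difference was 0.04, with an interval of -0.27 to 0.36 (limma adjusted p = 0.908). The rise in cKO was 1.62 after rescaling and 1.48 after centring, and the difference between dKO and cKO was -1.55 and -1.41, all 4 past the threshold. Sesn2 passed the filter of 1 TPM on the mean of all libraries only through cKO, since its control mean was 0.505 and its dKO mean 0.548.

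Sesn2 stood far out among the genes tested in cKO. It had the 27th largest increase of 11764 genes against control, and the 52nd largest decrease in dKO against cKO. These 2 comparisons share the cKO embryos, so they are not independent. A gene as low as Sesn2 in controls and dKO enters the tested set only if it is high in cKO, so the ranks are a description. An annotated noncoding transcript, Gm12981, lies on the same strand within the span of Sesn2 and shares no exonic base with it. Its mean was 0.0602 TPM in controls, 0.645 in cKO and 0.0495 in dKO, and the libraries were made from total RNA. Whether unspliced Sesn2 RNA adds to either value was not tested.

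Sesn1 showed a smaller difference in the same direction as deposited. It was at 3.39, 3.15, 3.25 and 2.79 TPM in controls 1 to 4, at 3.99, 4.16, 4.25 and 4.39 in cKO 1 to 4, and at 2.30, 3.12, 2.98 and 3.14 in dKO 1 to 4. All 4 cKO embryos were above all controls and all dKO embryos, and the controls and dKO overlapped. As deposited, 32.7% of all genes tested were likewise higher in cKO than control with no overlap, and 32.8% were lower in dKO than cKO with no overlap. By limma the log2 difference was 0.33 for cKO against control (SE 0.0853, adjusted p = 0.0137), and between dKO and cKO it was -0.43 (adjusted p = 0.00343). After rescaling, these were 0.20 (adjusted p = 0.161) and -0.25 (adjusted p = 0.105), and after centring 0.08 (adjusted p = 0.649) and -0.16 (adjusted p = 0.279). Sesn1 thus passed the test only as deposited, with 68.2% of genes showing a smaller difference in cKO.

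Sesn3, the third paralog, did not pass the test in any comparison or scaling. Its values were 3.24, 2.55, 1.84 and 2.41 TPM in controls, 2.31, 2.94, 3.07 and 3.22 in cKO, and 2.14, 2.79, 3.54 and 2.90 in dKO. The 3 groups overlapped throughout. The difference for cKO against control was 0.16 as deposited, with an interval of -0.14 to 0.45, but -0.09 after centring, so its sign depends on the scaling.

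The make-up of the sestrin RNA pool therefore differed in cKO, a measure within each library that no rescaling of TPM alters. Sesn2 made up 7.99 ± 2.28% of the summed sestrin TPM in controls (mean ± SD, n = 4), 35.9 ± 5.49% in cKO and 8.70 ± 2.17% in dKO. Its share was 29.5 to 40.6% across the cKO embryos and 5.70 to 11.1% across the controls and dKO together. Sesn1 went from 51.6 ± 5.81% in controls to 38.1 ± 2.83% in cKO, and Sesn3 from 40.4 ± 4.60% to 26.1 ± 3.34%. The summed level was 6.16 ± 0.896 TPM in controls, 11.1 ± 1.15 in cKO and 6.27 ± 0.996 in dKO. Stacked by embryo, most of the added height in cKO is the Sesn2 segment.

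**Figure D2:**
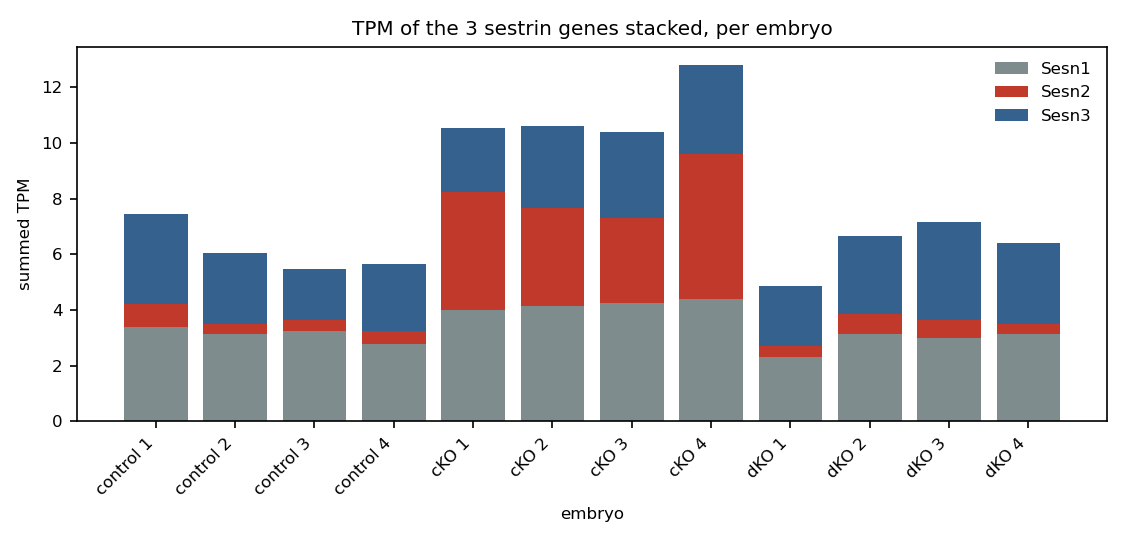
Summed TPM (y axis) of Sesn1 (grey), Sesn2 (red) and Sesn3 (blue) in each of the 12 embryos (x axis). The Sesn2 segment is 29.5 to 40.6% of the bar in the 4 cKO embryos and at most 11.1% in the other 8.

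Tigar, which diverts glucose carbon from glycolysis toward the pentose phosphate pathway, was 1.35 times its control mean in cKO. It was at 2.19, 2.11, 2.64 and 2.65 TPM in controls, at 3.31, 3.32, 2.49 and 3.82 in cKO, and at 2.28, 2.80, 1.90 and 2.13 in dKO. cKO embryo 3 lay within the control range, and the other 3 cKO embryos were above every control and dKO embryo. As deposited the log2 difference was 0.31 for cKO against control (SE 0.114, limma adjusted p = 0.0497), and between dKO and cKO it was -0.37 (adjusted p = 0.0248). After rescaling these were 0.19 and -0.20, and after centring 0.06 and -0.10, none past the threshold. The call against control was lost on leaving out any 1 of the 12 embryos other than cKO embryo 3 and dKO embryo 2, with adjusted p from 0.0169 to 0.143 over the 12. The call against cKO was lost without cKO embryo 2 (adjusted p = 0.0623), cKO embryo 4 (0.0774), dKO embryo 3 (0.0660) or dKO embryo 4 (0.0588).

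Gpx1 was at 29.9, 23.2, 23.8 and 22.8 TPM in controls, at 28.6, 34.1, 34.5 and 35.1 in cKO, and at 20.5, 21.4, 29.5 and 30.2 in dKO. Control embryo 1 stood above its group and cKO embryo 1 below its group, so that the former was the higher of these 2, and the dKO embryos fell into a lower and a higher pair. As deposited the log2 difference was 0.40 for cKO against control (SE 0.139, limma adjusted p = 0.0431), and between dKO and cKO it was -0.38 (adjusted p = 0.0450). After rescaling these were 0.25 and -0.17, and after centring 0.15 and -0.11, none past the threshold. The call against control was lost without control embryo 2, 3 or 4 (adjusted p = 0.102, 0.0895 and 0.102) or without cKO embryo 2, 3 or 4 (0.0970, 0.0755 and 0.103). The call against cKO was lost on leaving out any 1 of the 12 embryos other than control embryo 1, cKO embryo 1 and dKO embryos 3 and 4, with adjusted p from 0.0294 to 0.116. Gpx4, the peroxidase that acts on lipid hydroperoxides, had means of 16.0, 15.8 and 12.5 TPM in control, cKO and dKO. The log2 ratio of Gpx1 to Gpx4 was 0.61 ± 0.19 in controls and 1.02 ± 0.09 in cKO (SD, n = 4), a difference of 0.41 with no overlap (exact permutation p = 0.0286, adjusted p = 0.0857 over 12 such ratio tests). In dKO the ratio was 0.96 ± 0.27 and overlapped both other groups. Its difference was 0.35 from control (exact permutation adjusted p = 0.229) and -0.06 from cKO (adjusted p = 0.842).

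Prkab1 was at 7.30, 5.35, 7.01 and 7.05 TPM in controls, at 6.83, 8.13, 6.08 and 9.01 in cKO, and at 7.55, 7.04, 6.19 and 5.89 in dKO. The groups overlapped in every pairing, and the interval for cKO against control was -0.13 to 0.41 on the log2 scale. Its paralog Prkab2, the other β subunit, had means of 0.512, 0.669 and 0.427 TPM in control, cKO and dKO, and the log2 ratio of Prkab1 to Prkab2 did not pass the exact permutation test in any comparison (adjusted p from 0.648 to 1).

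Sco2 was at 1.32, 0.900, 0.990 and 1.11 TPM in controls, at 1.19, 1.12, 1.42 and 1.60 in cKO, and at 1.63, 1.29, 0.978 and 0.844 in dKO. The ranges overlapped, and the dKO embryos spanned those of both other groups. Sco2 values are uncertain, because 68.3% of its exonic bases are also annotated to Tymp on the same strand and 66.2% to Ncaph2 on the opposite strand. Tymp was at most 0.120 TPM in all embryos, and Ncaph2 had means of 12.7, 13.8 and 11.9 TPM in control, cKO and dKO. The log2 ratio of Sco2 to Sco1, a paralog with a related role, was lower in cKO than in controls with no overlap, by a difference of -0.19 (exact permutation p = 0.0286, adjusted p = 0.0857).

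Gls2 was the least expressed member, at 0.176, 0.251, 0.225 and 0.186 TPM in controls, 0.140, 0.242, 0.190 and 0.205 in cKO, and 0.228, 0.244, 0.161 and 0.216 in dKO. It did not pass the filter, and in a fit without the filter over 39624 genes its difference in cKO was -0.02, with an interval of -0.11 to 0.08. The 3 groups overlapped, and their means of 0.210, 0.194 and 0.212 TPM in control, cKO and dKO differed by less than the SD within a group.

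As deposited, 4 of the 7 members tested (Sesn1, Sesn2, Tigar and Gpx1) were called higher in cKO than in controls, where 34.3% of all genes tested were called higher. The median log2 difference was 0.31 over the members tested and 0.25 over all genes. The same 4 were called lower in dKO than in cKO, where the background was 38.8%, and the medians were -0.37 and -0.26. After centring only Sesn2 was called in each of these comparisons, against backgrounds of 3.72% higher and 3.83% lower, and after rescaling again only Sesn2, against 11.3% and 8.28%. No member was called in dKO against control by limma under any of the 3 scalings, and 0 of the 7 had an unadjusted p under 0.05. In that comparison 5.19% of genes were called as deposited, 8.43% after centring and 9.18% after rescaling. The ratios of dKO to control means ran from 0.917 for Sesn1 to 1.13 for Sesn3.

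**Figure D3:**
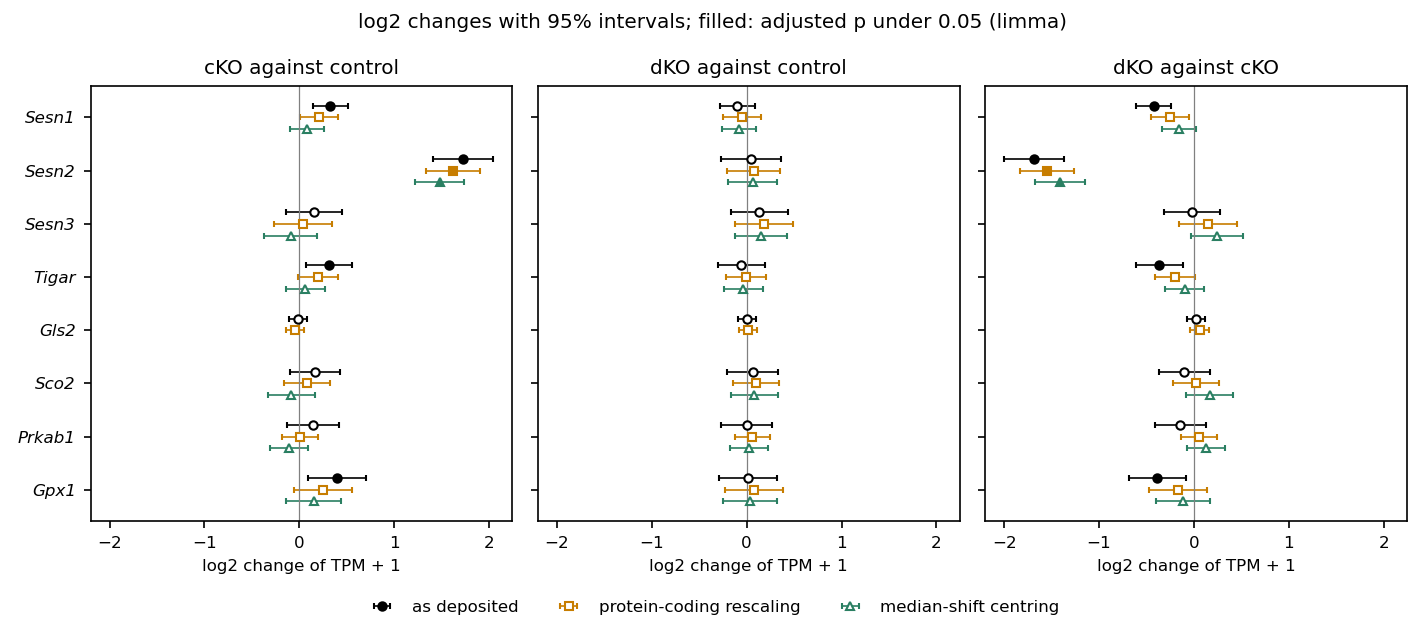
Log2 changes of TPM + 1 (x axis) with 95% intervals for each gene (y axis) in the 3 comparisons, as deposited (circles), after protein-coding rescaling (squares) and after median-shift centring (triangles); filled symbols have a limma adjusted p under 0.05, and Gls2 is from the fit without a filter, without a centred value. Sesn2 is the sole gene filled under all 3 scalings, at 1.48 to 1.73 in cKO against control, and no symbol is filled in dKO against control.

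**Figure D4:**
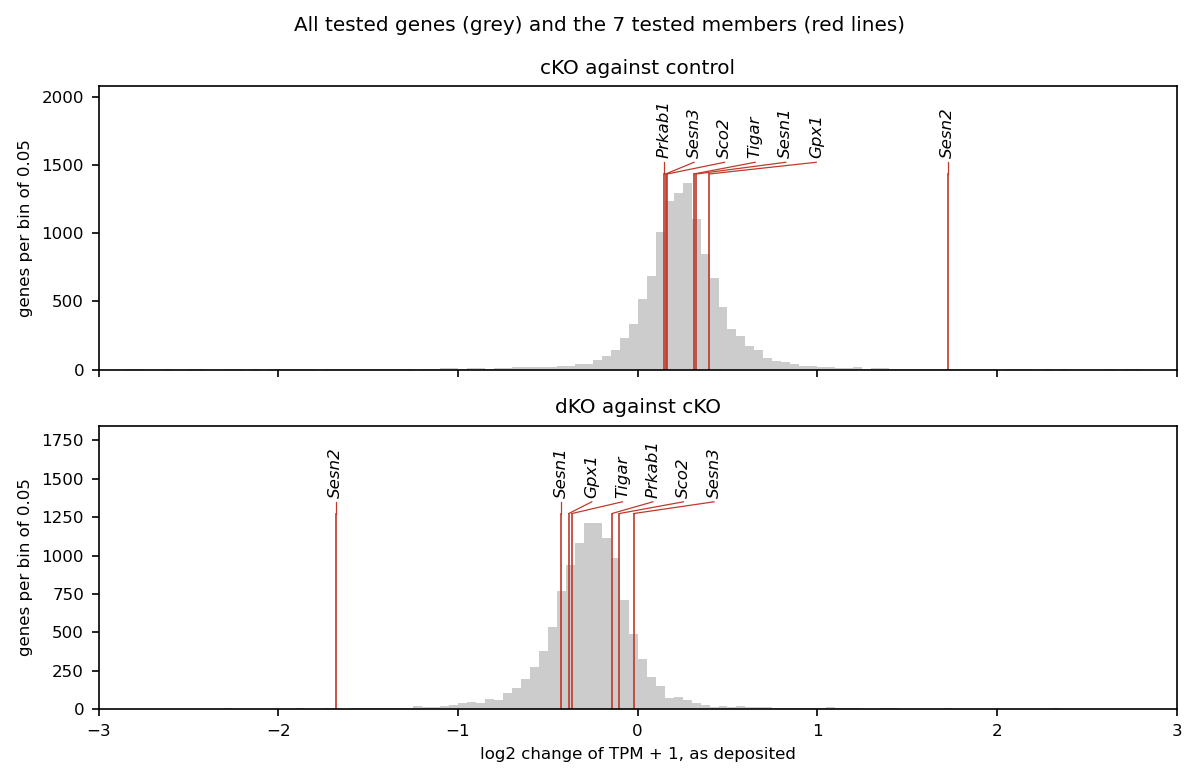
Distribution of the log2 change of TPM + 1 as deposited (x axis) over 11764 genes (grey, number of genes per bin on the y axis), with the 7 members tested as red lines, for cKO against control (top) and dKO against cKO (bottom). The bulk of genes is centred near 0.25 and -0.26, 6 members lie within it, and Sesn2 lies at 1.73 and -1.68.

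Within the bulk of the distribution, the 6 other members fell on both sides of its centre. In cKO against control, 78.9% of genes had a smaller log2 change than Gpx1 and 65.0% than Tigar. The corresponding shares were 32.3% for Sco2, 30.5% for Sesn3 and 28.2% for Prkab1. As deposited, cKO embryo 4, which had the highest protein-coding share, was the highest cKO embryo for 7 of the 8 members. After rescaling it was the highest for 0 of them, and after centring for 2. Among controls, embryo 1 was the highest for 6 of the 8 as deposited, and it too had the highest protein-coding share of its group, at 16.3%. After rescaling it stayed the highest control for Sesn2, Sesn3, Sco2 and Gpx1. It was then below embryo 2 for Sesn1 (3.31 against 3.43 TPM) and below embryo 4 for Prkab1 (7.12 against 7.33). Control embryo 1 also had the highest Trp53 as deposited, at 6.37 TPM. Without control embryo 1, Trp53 was higher in cKO than in controls by a log2 difference of 0.40 as deposited. On that scale the median over all genes tested was 0.25 with all 4 controls. No centred Trp53 difference is given without embryo 1. With embryo 1 the difference was 0.18 (exact permutation p = 0.514), and -0.07 after centring (limma adjusted p = 0.861). Embryo 1 was left out after its Trp53 value was seen, so no p-value is given for the set without it.

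Phlda3, Serpine2 and Zfp365 followed Sesn2 most closely across the 12 embryos, measured as the root mean square difference of log2(TPM + 1) after subtracting each gene's control mean. The difference was 0.19 for Phlda3, which encodes a p53-induced inhibitor of Akt, 0.20 for Serpine2, which encodes a secreted serine protease inhibitor, and 0.21 for Zfp365. Phlda3 was at 0.293 to 0.823 TPM in controls, 2.82 to 3.99 in cKO and 0.312 to 0.672 in dKO. Serpine2 was at 1.42 to 2.18, 8.22 to 9.54 and 1.77 to 2.80 TPM in the same groups, and Zfp365 at 0.241 to 0.417, 2.47 to 3.13 and 0.439 to 0.600. The 3 were chosen for this likeness, so their levels are a description. Phlda3 (mean 0.502 TPM in controls and 0.425 in dKO) and Zfp365 (0.316 and 0.523) passed the filter of 1 TPM only through cKO.

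A wider list of metabolic genes linked to p53 covers lipid, amino acid, nucleotide and polyamine use. This list, too, was chosen with earlier results of these data known. Of 17 such genes listed, 15 were tested, and 10 rose in cKO against control as deposited, 8 after rescaling and 5 after centring. Over all genes tested, 34.3%, 11.3% and 3.72% were called higher under these scalings. The list's median log2 difference was 0.55 as deposited, beside 0.25 over all genes, and 0.30 after centring. The 5 were Cpt1c, Trp53inp1, Slc7a11, Sat1 and Aldh4a1, the last 2 named after their values were seen. Cpt1c, a brain form of carnitine palmitoyltransferase, was at 2.78 to 3.16 TPM in controls, 6.66 to 9.40 in cKO and 2.20 to 2.50 in dKO. Its log2 change was 1.12 in cKO against control (limma adjusted p = 1.03e-05) and -1.39 in dKO against cKO (adjusted p = 2.45e-06). Trp53inp1, which encodes a stress-induced cofactor of p53, was at 6.33 to 8.13 TPM in controls, 13.6 to 16.1 in cKO and 3.47 to 5.25 in dKO. It rose by 1.00 in cKO (limma adjusted p = 0.000174). In dKO it was called below control as deposited (log2 change -0.52, limma adjusted p = 0.0222) and after centring (-0.50, adjusted p = 0.0271). After rescaling it was not called (-0.47, adjusted p = 0.0528). Cpt1c was called below control in dKO only after centring (-0.25, limma adjusted p = 0.0400), and not as deposited (-0.27, adjusted p = 0.104) or after rescaling (-0.23, adjusted p = 0.0603). Slc7a11, the cystine importer subunit usually described as repressed by p53, was at 1.06 to 1.24 TPM in controls, 2.88 to 3.25 in cKO and 1.24 to 2.25 in dKO. It rose by 0.90 in cKO against control (adjusted p = 0.000201). In dKO against cKO its log2 change was -0.59 as deposited (limma adjusted p = 0.00198). After rescaling that change was -0.44 and still called (limma adjusted p = 0.0447), and after centring it was -0.32 and not called (limma adjusted p = 0.128). The cause of these differences was not tested. In dKO against cKO, 11 of the 15 fell as deposited, 9 after rescaling and 4 after centring (Trp53inp1, Cpt1c, Sat1 and Lpin1), when 1, Pank1, was higher. The shares of all genes called lower were 38.8%, 8.28% and 3.83%.

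**Figure D5:**
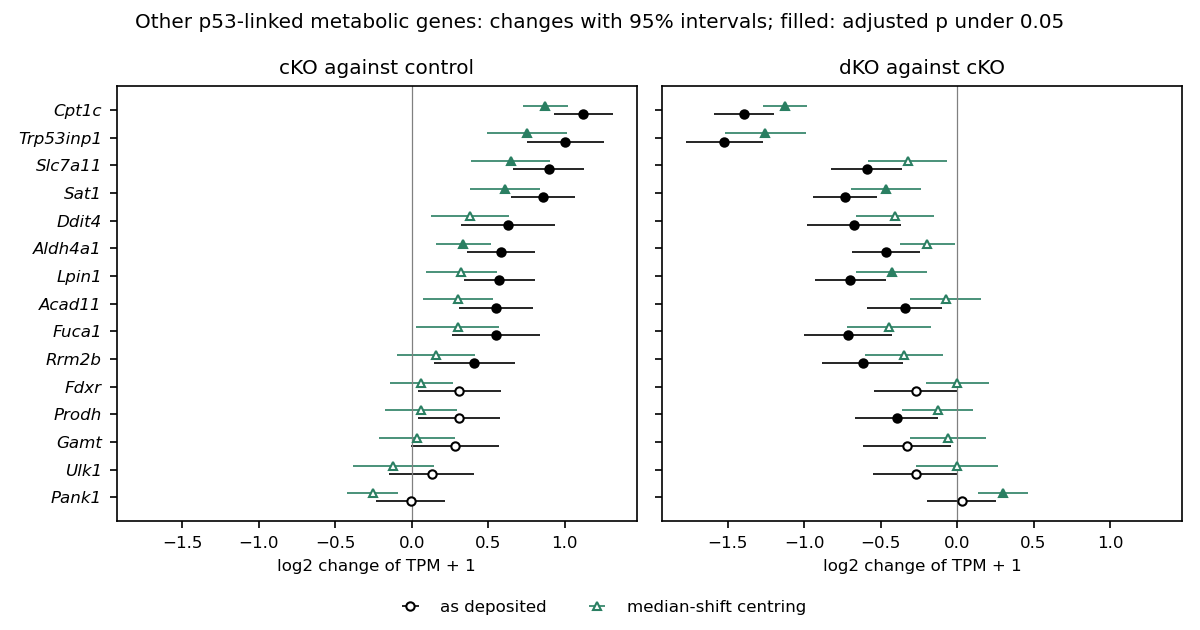
Log2 changes of TPM + 1 (x axis) with 95% intervals for the 15 tested genes of the list of other p53-linked metabolic genes (y axis), as deposited (black circles) and after centring (green triangles), with filled symbols for a limma adjusted p under 0.05. For cKO against control 10 are filled as deposited and 5 after centring, led by Cpt1c at 1.12 and Trp53inp1 at 1.00.

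In the pathways of the 8 proteins, few genes were called once the general shift was removed by centring. Over all genes tested, 34.3% were called higher in cKO as deposited and 3.72% after centring. The counts of genes that rose as deposited in each of these pathway lists lie near or below that share and are no result about the pathways. Of 20 genes tested for amino acid sensing and mTORC1, where the sestrins act, 4 rose and 1 fell in cKO as deposited (Rragc, Mlst8, Nprl2 and Tsc1, and Mios), and only Mios was called after centring. Mios, a subunit of the GATOR2 complex that binds Sesn2, was at 2.28 to 2.62 TPM in controls, 1.35 to 2.10 in cKO and 1.16 to 1.29 in dKO. It fell against control in both knockouts, with log2 changes of -0.30 in cKO (limma adjusted p = 0.0270) and -0.63 in dKO (adjusted p = 0.00240). Among 7 tested genes of the AMP-activated kinase, 3 rose in cKO as deposited (Camkk2, Stk11 and Cab39) and limma called 0 after centring, when 0 had an unadjusted p under 0.05. Stk11, the kinase LKB1 that activates this complex, was at 7.42 to 9.62 TPM in controls, 9.89 to 11.9 in cKO and 6.62 to 7.22 in dKO, with a log2 change of -0.28 from cKO to dKO after centring (adjusted p = 0.0301).

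For sugar use, where Tigar acts, 6 of 19 tested glycolytic genes rose in cKO as deposited and 1 after centring, beside 34.3% and 3.72% of all genes. That gene was Pfkp, the platelet-type phosphofructokinase, at 1.93 to 3.10 TPM in controls, 4.66 to 5.87 in cKO and 2.27 to 3.93 in dKO (log2 change 0.87 in cKO, limma adjusted p = 0.00159). Of 7 genes of the pentose phosphate pathway, only Taldo1 rose in cKO as deposited, and limma called 0 after centring, when 0 had an unadjusted p under 0.05. Among 9 tested genes of glutamine use, 3 rose in cKO as deposited (Glul, Got1 and Glud1) and 1 after centring. That gene was Glul, which makes glutamine from glutamate, at 6.53 to 7.97 TPM in controls, 9.99 to 11.7 in cKO and 7.38 to 9.06 in dKO.

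In cytochrome c oxidase assembly, where Sco2 acts, 6 of 14 tested genes rose and 1 fell in cKO as deposited, where 34.3% of all genes rose. The one that fell, Coa3, an early assembly factor, was at 16.6 to 19.5 TPM in controls, 9.40 to 13.8 in cKO and 6.59 to 9.85 in dKO, with log2 changes of -0.58 in cKO (limma adjusted p = 0.00644) and -1.06 in dKO (adjusted p = 0.000848) against control. Coa3 was the sole gene of this list called in cKO after centring. Cox20, which assists the maturation of a catalytic subunit, was at 11.98 to 14.8 TPM in controls, 16.4 to 20.9 in cKO and 10.3 to 11.3 in dKO, with a log2 change of -0.72 from cKO to dKO (adjusted p = 0.000273). Of 20 tested antioxidant enzymes, 3 rose in cKO as deposited (Hmox1, Prdx5 and Gpx7), and limma called 0 after centring, when 8 had an unadjusted p under 0.05. After centring the median log2 difference of these enzymes in cKO was -0.12, and 5 of the 20 were above 0. After rescaling the median was -0.018, 8 of the 20 were above 0, and 1, Prdx5, was called higher, where 11.3% of all genes were. In dKO against control, 2 of the 20 were called higher after centring (Prdx5 and Gpx8) and 4 after rescaling (also Prdx6 and Gpx7). In that comparison 8.43% and 9.18% of all genes were called in either direction.

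Transcripts of known regulators of the sestrins did not share one pattern. Nfe2l2, which encodes NRF2, was at 3.75 to 4.59 TPM in controls, 5.63 to 7.73 in cKO and 3.43 to 4.76 in dKO, and rose in cKO by 0.56 (limma adjusted p = 0.00285). Keap1, which encodes the repressor of NRF2, did not pass in cKO (adjusted p = 0.0614). Foxo3, a forkhead factor known to induce Sesn1 and Sesn3, was at 1.62 to 2.72, 3.34 to 4.64 and 1.42 to 2.55 TPM, and rose in cKO by 0.74 (adjusted p = 0.00355). Foxo4 was at 1.20 to 1.98, 1.32 to 1.70 and 1.06 to 1.37 TPM in the same order with no call, and Foxo1 was at most 0.213 TPM and under the filter. Both Nfe2l2 and Foxo3 were also called in cKO after centring, at 0.31 and 0.49. Atf4, the factor of the integrated stress response, was at 11.4 to 15.2 TPM in controls, 13.9 to 19.4 in cKO and 15.5 to 18.8 in dKO. It was not called in cKO (0.27, adjusted p = 0.0797), and limma called 0 of 7 tested genes of that response in cKO under the 3 scalings, with 1 at an unadjusted p under 0.05 as deposited, 1 after centring and 0 after rescaling. In dKO against control, Atf4 was called higher after centring (0.33, adjusted p = 0.0296) and after rescaling (0.38, adjusted p = 0.00729), and not as deposited (0.31, adjusted p = 0.143). It was also called higher in dKO than in cKO after centring (0.31, adjusted p = 0.0467) and after rescaling (0.25, adjusted p = 0.0426). After rescaling, 3 of the 7 genes (Atf4, Asns and Psat1) were called higher in dKO than in control, where 9.18% of all genes were called in either direction. These are levels of transcript, and the activity of the factors was not measured.

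Markers of some other cell types also differed between cKO and control. The summed TPM of 8 microglial markers, from cells outside the Emx1 lineage, was 12.5 to 15.5 in controls, 48.9 to 71.1 in cKO and 14.7 to 20.6 in dKO. Of these markers 7 of 8 rose in cKO under all 3 scalings, and none was at 0 in all embryos of a group. Among all genes tested, 34.3% were called higher in cKO as deposited, 11.3% after rescaling and 3.72% after centring. The summed TPM of 7 vessel and pericyte markers was 9.98 to 12.8, 19.6 to 25.6 and 12.2 to 20.2, with 6 of the 6 tested higher in cKO as deposited and 3 after centring. The 8 neuronal markers summed to 229 to 253, 300 to 368 and 157 to 240, with 5 higher in cKO as deposited and 0 by limma after centring, when 2 had an unadjusted p under 0.05. The 8 markers of radial glia, the pallial progenitors, summed to 253 to 280 TPM in controls, 298 to 351 in cKO and 274 to 280 in dKO. As deposited, 2 of them were called higher in cKO (Fabp7 and Slc1a3) and 1 lower (Hes5), and after centring 0 were higher and 2 lower (Hes5 and Sox2), with a median log2 difference of -0.21. The 6 markers of cortical hem and choroid plexus, tissues at the edge of the pallium, summed to 43.7 to 103 TPM in controls, 82.2 to 255 in cKO and 69.4 to 295 in dKO. Of the 5 tested, 3 were higher in cKO as deposited and 1, Rspo2, after centring. The 7 markers of interneurons and ventral telencephalon summed to 1.73 to 2.43, 3.43 to 5.29 and 1.68 to 3.65 TPM, and the 1 tested, Dlx1, was higher in cKO only as deposited. The 6 markers of intermediate progenitors summed to 37.8 to 53.9, 37.8 to 50.4 and 34.6 to 43.9 TPM, with 1 higher and 1 lower in cKO as deposited and 3 lower after centring. Of 8 markers of red blood cells, limma called 0 in cKO under all 3 scalings, with 0 at an unadjusted p under 0.05. Of 8 proliferation markers, limma called 0 in cKO as deposited and 1 lower after centring, when 6 had an unadjusted p under 0.05. The part of any of these cell types in the Sesn2 difference was not tested.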

How the data were processed

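Total RNA of 12 dissected pallia, 4 embryos per genotype, was sequenced from stranded libraries, per the labels. Per the submitters' processing notes, HISAT2 and the mm10 build were used. The quantification tool, the annotation and the read depth are not given in the sources used here. Each deposited file holds 1 value per gene symbol and no header. The values sum to 1000000 in every library and were taken as TPM computed by the authors.

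The 11764 genes whose TPM averaged 1 or more over the 12 libraries were tested with limma 3.58.1 in R 4.3.3 (trended variance, 1 fit of 3 groups on log2(TPM + 1), pseudocount 1), with Benjamini-Hochberg adjustment over all genes tested and a threshold of 0.05. The deposited TPM were used as they are, after rescaling to an equal sum over 21870 protein-coding symbols (GENCODE M21) and after median-shift centring. Targeted genes and ratios of paralogs were compared by exact permutation tests over 70 assignments; the ratio of 1 pair enters the adjustment but is not reported here. Other pseudocounts, filters, quantile normalization, sample weights, the groups compared alone, a replicate block and leaving out each embryo were alternatives. Replicate numbers were taken as labels only. The p-values measure the spread between embryos, whose litters are not given.

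On data simulated from these libraries for cKO against control over 11764 genes, 48 of 100 genes changed by 0.5 and 89 of 100 changed by 1 on the log2 scale were recovered, with 6 false calls. As deposited, the median log2 difference in this comparison was 0.25, and 34.3% of genes were called higher. The number of false calls under such a general shift was not tested. Genes outside the 8 were named if among the 3 largest changes of their list called both as deposited and after centring, or if listed as regulators, and Phlda3, Serpine2 and Zfp365 by likeness to Sesn2. For likeness a member had to be called in cKO with a log2 change of at least 1. The genes and lists were chosen with earlier results of these data known. Promoter windows are from RefSeq (GRCm38.p6).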

Additional observations from a re-analysis of the deposited data

Results flagged for a closer look

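In 4 of 36 groups of 4 embryos, 1 embryo stood apart from the other 3 by more than Dixon's 95% limit for the gap divided by the range. Chance flags about 1 in 20 groups, or 1.8 of 36. Among controls, Prkab1 was low in embryo 2 at 5.35 TPM, with the others at 7.01 to 7.30 (gap to range 0.852). Gpx1 was high in control embryo 1 at 29.9 TPM, with the others at 22.8 to 23.8 (0.861). In cKO, Gpx1 was low in embryo 1 at 28.6 TPM, with the others at 34.1 to 35.1 (0.840). The log2 ratio of Prkab1 to Prkab2 was low in control embryo 2 at 2.14, with the others at 2.39 to 2.42 (0.919). No Sesn2 or Sesn1 group passed this limit.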

How the results depend on the processing

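The rise of Sesn2 in cKO and its fall from cKO to dKO kept their direction and stayed past the threshold under every alternative except the filter of 5 TPM, which it did not pass, with log2 changes of 1.48 to 2.80 and of -2.68 to -1.41 (outermost at pseudocount 0.1 and under centring or quantile normalization). The share of Sesn2 in the sestrin sum was 34.3 to 38.0% in cKO on leaving out each embryo. The limits lie with the other members. Members called in cKO against control numbered 2 without the filter, 1 with a mean of at least 5 TPM, 1 after centring, 1 after protein-coding rescaling and 1 after quantile normalization, against 4 in the report. In dKO against cKO these numbers were 2, 1, 1, 1 and 1, also against 4. The stricter filter removes Sesn1, Sesn2 and Tigar from the test, and for the other settings the cause was not tested. Leaving out each embryo gave 2 to 4 in both comparisons. It gave 2 in cKO against control without control embryo 2, 3 or 4 or cKO embryo 2 or 4, and 2 in dKO against cKO without cKO embryo 2 or 4. Depth is unknown, so counting error of the low genes Gls2 and Sesn2 cannot be given.

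Correlations of the deviations of same-numbered embryos ran from -0.10 to 0.07, and those of embryos with different numbers from -0.16 to 0.14. With 4 embryos a group, this check cannot exclude a weak pairing. With the replicate number as a block, 2 members were called in cKO against control and 3 in dKO against cKO, and 1 in each with the block and centring together.

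Values that were not called and lay near 0 changed sign as follows. For cKO against control, centring gave -0.093 for Sesn3, -0.085 for Sco2 and -0.11 for Prkab1, the block with centring gave the same -0.093, -0.085 and -0.11, and quantile normalization gave -0.13, -0.11 and -0.11. For dKO against cKO, centring gave 0.25 for Sesn3, 0.17 for Sco2 and 0.13 for Prkab1, the block with centring again 0.25, 0.17 and 0.13, rescaling 0.14, 0.020 and 0.053, and quantile normalization 0.27, 0.18 and 0.14. Sample weights gave 0.044 for Sesn3 in dKO against cKO, and -0.023 for Sco2 and -0.088 for Prkab1 in dKO against control. At pseudocount 0.1 the log2 ratio of Prkab1 to Prkab2 was -0.17 in cKO against control. The cause was not tested.

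On leaving out each embryo, values near 0 spanned both signs. For dKO against control these were Sesn2 (-0.013 to 0.14), Tigar (-0.13 to 0.0026), Gls2 (-0.011 to 0.024), Sco2 (-0.031 to 0.14), Prkab1 (-0.088 to 0.050) and Gpx1 (-0.072 to 0.11). For dKO against cKO these were Sesn3 (-0.11 to 0.071) and Gls2 (-0.00051 to 0.042), and for cKO against control Gls2 (-0.037 to 0.0034). The log2 ratio of Prkab1 to Prkab2 ran from -0.086 to 0.086 in cKO against control, from -0.0012 to 0.17 in dKO against cKO and from -0.00021 to 0.13 in dKO against control, and that of Gpx1 to Gpx4 from -0.15 to 0.063 in dKO against cKO. Centring takes the same log2 amount from every gene and so moved Gls2, at about 0.2 TPM, to -0.27 in cKO and 0.29 from cKO to dKO, both past the threshold in the fit without a filter, which was not read as a change.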
